A study of Mus musculus with 108 samples.

Results

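The genes described here are the cytosolic ribosomal protein genes, taken as every gene whose symbol is Rps or Rpl followed by digits and an optional letter, digit or l, with a mean of at least 1 CPM (counts scaled to the library's total) over all libraries. Of the 49585 genes in the deposited table, 86 symbols matched and 80 passed the level limit, 34 of them small-subunit and 46 large-subunit symbols. The level was part of the choice, so the levels of the 80 genes are given as a description. Just inside the limit lay Rpl36a at 1.43 CPM, Rpl17 at 1.76 CPM and Rpl35 at 1.78 CPM. The 6 symbols outside it were Rpl24 at 0.904 CPM, Rpl39l at 0.897 CPM, Rpl29 at 0.271 CPM, Rpl23a at 0.161 CPM, Rpl10l at 0.0290 CPM and Rps12l1, which had no count. The annotation lists 75 of the 80 genes as protein coding and 5, namely Rpl32l, Rpl6l, Rps3a2, Rps3a3 and Rps4l, as processed pseudogenes.

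Ribosomal proteins bind the ribosomal RNAs in fixed proportion, forming a small subunit that reads the messenger RNA and a large subunit that joins amino acids. Their messages are among the most abundant of a cell, and most begin with a run of pyrimidines at the very 5′ end, the terminal oligopyrimidine or TOP motif, through which mTOR signalling controls their translation. A mammalian genome carries very many intronless copies of these genes, most of them silent. Some proteins of the family also act outside the ribosome: Rpl5 and Rpl11 bind and inhibit Mdm2, the ubiquitin ligase of p53, and the paralogue Rps27l is itself a p53 target gene. Neutrophils, the main granulocytes, enter tissue as short-lived cells that no longer divide, whereas monocytes can still mature into macrophages.

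The data are bulk RNA-seq of FACS-purified myeloid cells of athymic nude mice (Balb/C, CAnN.Cg-Foxn1nu/Crl), a host that lacks mature thymus-derived T cells, in a series on brain metastasis of lung cancer. The libraries form 28 groups. From tumour-bearing brains came 24 libraries each of microglia and BMDM (the usual short form of bone marrow-derived macrophages), and 23 each of inflammatory monocytes and granulocytes. Each population was taken without irradiation at a small and a large tumour stage (5 and 5 libraries, but 4 and 5 for monocytes and granulocytes). Irradiated libraries were taken 3, 5 or 10 days with 5x2 Gy (4, 4 and 3 libraries per population) and 3 days with 1x10 Gy (3 libraries per population), without stratification by stage. Tumour-free animals gave 4 libraries of blood monocytes and 4 of microglia, and 3 more microglia libraries each with 5x2 D3 or 5x2 D5 in their titles and a radiotherapy field of none. The labels do not give the event from which days are counted. They also do not say that replicate libraries are from different animals, so a p-value refers to the spread among the libraries, which may be technical. Total counts per library lay between 985423 and 18642700. By low total, unusually many genes detected or abundant genes without a count, 12 libraries were of doubtful quality, among them 2 of the 4 tumour-free microglia and 3 of the 4 blood monocyte libraries.

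Of the 80 genes, 59 have a transcription start in the RefSeq promoter table (build GRCm38.p6), and in 29 of these (49.2%) a C followed by at least 4 further C or T stood on the coding strand within 5 bases of a listed start. The same held for 5718 of 27025 genes with a listed start (21.2%), for 17 of 69 mitochondrial ribosomal protein genes (24.6%) and for 19 of 63 nuclear genes of the respiratory chain (30.2%). A match describes letters at a listed start and not a measured start, and no match says only that the letters are not in that window. The sequences below belong to genes on which the results turn and run from 40 bases before to 20 bases after the listed start, 5′ to 3′ on the gene's strand, with the pyrimidine run in capitals. Rpl27a (chr7:109519155-109519214, plus strand) and Rpl13a (chr7:45128726-45128785, minus strand) carry long runs and were lower in granulocytes than in monocytes. Rps6 (chr4:86857348-86857407, minus strand) carries a run and had far fewer counts than a row named as its pseudogene. Rps27 (chr3:90213629-90213688, minus strand) and its paralogue Rps27l (chr9:66946046-66946105, plus strand) both carry a run, as does Rpl22l1 (chr3:28805468-28805527, plus strand).
Rpl27a: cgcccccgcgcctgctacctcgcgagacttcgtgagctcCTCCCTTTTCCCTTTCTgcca
Rpl13a: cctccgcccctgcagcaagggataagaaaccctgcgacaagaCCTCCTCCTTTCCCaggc
Rps6: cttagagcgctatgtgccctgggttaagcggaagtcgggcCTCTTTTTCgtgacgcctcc
Rps27: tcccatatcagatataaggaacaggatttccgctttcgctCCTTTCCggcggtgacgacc
Rps27l: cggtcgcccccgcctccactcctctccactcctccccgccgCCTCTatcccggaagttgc
Rpl22l1: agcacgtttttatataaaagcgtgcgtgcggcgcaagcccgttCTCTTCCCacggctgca

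By contrast, no such run was found at the listed starts of Rps3 (chr7:99483690-99483749, minus strand), the gene with the steadiest share of the family's counts, Rpl36al (chr12:69184048-69184107, minus strand) and Rps4x (chrX:102189372-102189431, minus strand), which fell strongly in granulocytes, or Rpl3l (chr17:24727786-24727845, plus strand), which rose there.
Rps3: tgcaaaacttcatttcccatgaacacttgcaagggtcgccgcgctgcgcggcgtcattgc
Rpl36al: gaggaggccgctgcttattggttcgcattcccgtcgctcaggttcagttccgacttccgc
Rps4x: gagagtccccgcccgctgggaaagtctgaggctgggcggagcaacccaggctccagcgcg
Rpl3l: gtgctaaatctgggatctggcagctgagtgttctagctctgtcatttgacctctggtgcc

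The counts of the family were spread very unevenly and do not reflect the fixed proportion of the proteins. Per kb of transcript, Rpl41, a very short large-subunit protein, had a mean of 406 CPM, Rps9 342 CPM, Rpl32 329 CPM, Rpl8 306 CPM, Rpl4 274 CPM and Rps3 241 CPM. At the other end, Rpl5, which carries 5S ribosomal RNA into the large subunit, had 1.14 CPM per kb and Rps16 had 2.41 CPM per kb. The 5 genes with the most counts held 40.8% of all counts of the family and the 10 with the most held 59.4%.

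Near-identical copies hold many of the family's reads in the deposited table. Rows named as pseudogenes of ribosomal protein genes number 269, of which 53 reached 1 CPM. Of the 80 genes, 55 have such a row, and in 29 of these the pseudogene rows held more counts than the gene. The row Rpl3-ps1 had a mean of 392 CPM and Rpl3, a core protein of the peptidyl transferase centre, 33.9 CPM. The row Rps6-ps4 had 305 CPM and Rps6, the substrate of S6 kinase, 6.54 CPM, and Rps16-ps2 had 193 CPM and Rps16 2.67 CPM. The 25 genes with no such row had a median of 51.8 CPM, whereas the 55 with one had a median of 11.7 CPM. Which reads were counted when they matched several places is not given in the sources used here, so counts of these genes and of their copies cannot be told apart with certainty.

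The same was seen from sequence. With 1 transcript taken per gene, a median of 56.5% of a ribosomal protein gene's 50-base windows occurred in another annotated gene. It was 2.62% for 78 mitochondrial ribosomal protein genes and 1.43% for 79 respiratory chain genes. For these lists the longest coding transcript was taken. For the 80 genes it was the shortest transcript annotated as principal, where there was one, so the medians are not strictly alike. At least 50% was shared in 48 of the 80 genes, and Rpl3l shared none. The 5 genes with under 10% shared had a median of 241 CPM per kb, the 27 with 10% to under 50% had 40.1 CPM per kb, and the 48 with 50% or more had 16.5 CPM per kb. Rps3 shared 2.96% of its windows, Rpl8 7.86%, Rpl4 16.5%, Rps27l 22.4%, Rpl11 62.2%, Rpl36al 63.3%, Rpl22l1 65.6%, Rps4x 72.2% and Rps27 98.6%. Changes of genes with a high value are therefore uncertain as to which locus the reads came from.

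**Figure D1:**
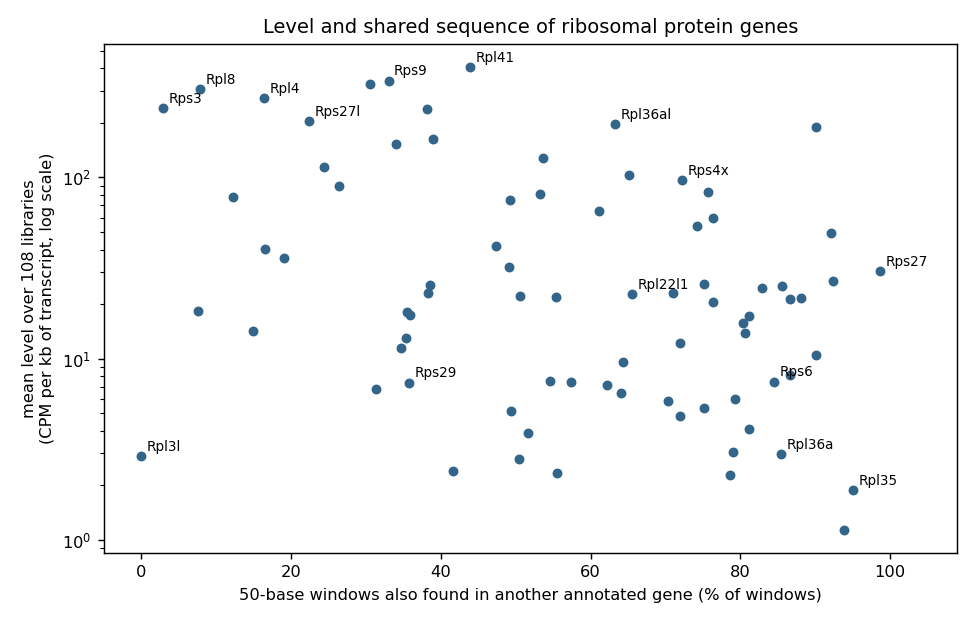
Each point is 1 of 79 ribosomal protein genes (1 is not drawn), with the percentage of its 50-base windows that also occur in another annotated gene on the horizontal axis and its mean level over all libraries, in CPM per kb of transcript on a log scale, on the vertical axis. Genes with 50% or more of their windows shared had a median of 16.5 CPM per kb, and Rps3 and Rpl8 lie at the upper left with 241 and 306 CPM per kb.

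The 80 genes together took between 0.0747% and 1.27% of all gene counts of a library, with a median of 0.372%. This share is the measure the genes were grouped by, and it is given as a description, with no test between groups. In granulocytes it lay between 0.0747% and 0.269% (median 0.108%, n = 23), in monocytes between 0.265% and 1.07% (median 0.411%, n = 23), in BMDM between 0.344% and 1.06% (median 0.457%, n = 24), and in microglia, tumour-free ones included, between 0.225% and 1.04% (median 0.335%, n = 34). The 4 blood monocyte libraries stood at 0.817%, 0.440%, 0.670% and 1.27%. Granulocytes thus lay below the other populations, with a small overlap at the level of the lowest microglia and monocyte libraries. In these bulk libraries, fewer cells of a type and less RNA per cell cannot be told apart.

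Within the tumour, libraries of granulocytes and monocytes that carry the same group name and number can be set side by side. Granulocytes had the lower share in 23 of 23 such pairs, with a ratio of granulocytes to monocytes between 0.176 and 0.430 and a median of 0.262. Against BMDM the median ratio was 0.229 and against microglia 0.287, again under 1 in 23 of 23 pairs each. As the ranges of granulocytes and of these populations hardly overlap, the counts of pairs add little to the ranges. The numbers were not taken as pairs in the tests. BMDM had the lower share in 4 of 24 pairs with microglia, at a median ratio of 1.31, and monocytes in 9 of 23 pairs with microglia, at a median ratio of 1.16.

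Single libraries stood far above their group in the same measure. In unirradiated granulocytes the share was 0.194%, 0.107%, 0.124% and 0.243% at the small stage and 0.110%, 0.0962%, 0.0830%, 0.124% and 0.190% at the large stage. In unirradiated monocytes it was 0.475%, 0.358%, 0.437% and 0.952% at the small stage and 0.379%, 0.427%, 0.459%, 0.288% and 1.07% at the large stage. The last library was the highest in each of these groups.

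In all, 20 libraries reached 1.5 times the median of their group, and none of them was among the 12 of doubtful quality. Most of the 20 carry the same number in different populations. In all tumour populations these were number 5 of the large stage, number 4 of 5x2 Gy day 3 and number 4 of 5x2 Gy day 5. At the small stage it was number 4 in BMDM, monocytes and granulocytes. In small-stage microglia number 3 was high instead, at 0.852%, and number 4 stood at 0.335%. The other 4 were blood monocytes 4, tumour-free microglia titled 5x2 D5 number 1, BMDM 2 and granulocytes 3 of 1x10 Gy day 3. Whether these numbers mark a shared animal, day or preparation is not given, and its part in the results was not tested. Results that move without these 20 libraries are given both ways. The libraries were picked by the summed counts of the family itself, so leaving them out is not an independent check.

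**Figure D2:**
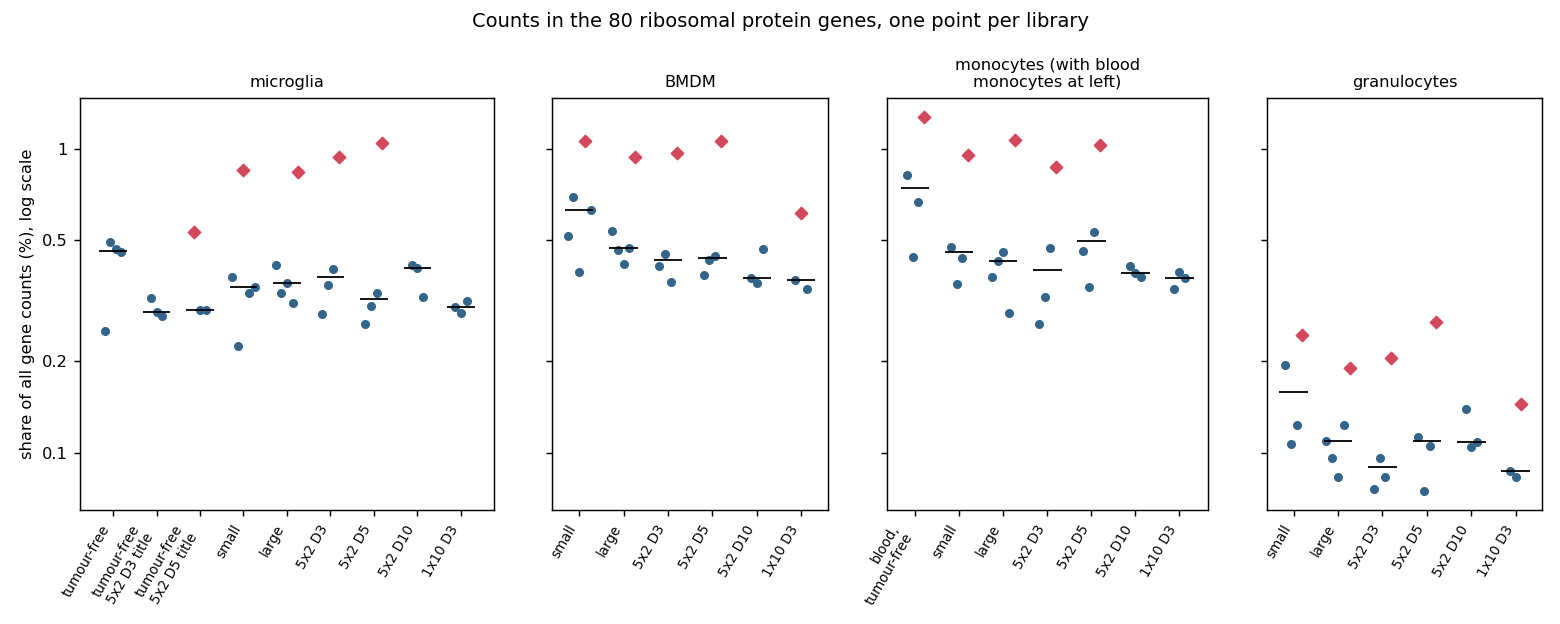
Each point is a library, with its group on the horizontal axis and the percentage of all gene counts in the 80 ribosomal protein genes on the vertical axis (log scale), bars mark group medians, and red diamonds are the 20 libraries at 1.5 times their group's median or more. Granulocyte libraries lie between 0.0747% and 0.269%, and in most tumour groups 1 library stands far above the others.

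Within the family, the composition of the counts was steadiest for Rps3, a small-subunit protein at the mRNA entry site that also takes part in DNA repair. Its share of the family's counts lay between 9.24% in tumour-free microglia titled 5x2 D3 and 12.4% in granulocytes of 5x2 Gy day 3, with a coefficient of variation of 6.08% over the 28 group means. For Rpl8, at the peptidyl transferase centre, the coefficient was 8.48%. The most variable were Rpl3l at 180%, Rpl11 at 121%, Rps13 at 89.0%, Rps4l at 87.9% and Rps27 at 85.3%. Rpl3l, the striated-muscle paralogue of Rpl3, took 1.60% of the family's counts in granulocytes of 1x10 Gy day 3 and 0.0016% in microglia of the same treatment.

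With all libraries kept, granulocytes against monocytes gave the most calls among these genes of the comparisons made. Without the 20 libraries of high share, BMDM against microglia gave more, with 32 calls against 28. Those libraries were picked by the counts of the same 80 genes, so this order is not an independent result. In unirradiated tumours, 41 of the 80 genes were lower and 3 were higher in granulocytes, by edgeR's quasi-likelihood test with Benjamini-Hochberg adjustment over 14270 genes and a threshold of 0.05. Among all genes tested, 26.9% were called lower and 23% were called higher. The median log2 fold change was -1.19 for the 80 genes and -0.13 for all genes. The fall was seen in both subunits, with 18 of 34 small-subunit and 23 of 46 large-subunit genes lower. For 29 of the 80 genes every granulocyte library lay below every monocyte library, as for 22% of all genes tested, and for 0 did every granulocyte library lie above, as for 3.08% of all genes.

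The clearest falls were those of Rpl36al, Rpl32 and Rps20. Rpl36al, a paralogue of the X-linked Rpl36a, had 1.58 CPM at the lowest, 19.4 at the median and 28.99 at the highest of 9 granulocyte libraries, against 109.5, 148 and 222 CPM in 9 monocyte libraries. The groups did not overlap, and the log2 fold change was -2.47 ± 0.37 (SE; edgeR adjusted p = 1.34e-05). Rpl32, a large-subunit protein, had 10.8, 27.7 and 49.8 CPM in granulocytes, against 100.2, 175 and 428 CPM in monocytes, again without overlap (log2 fold change -2.28 ± 0.34, edgeR adjusted p = 1.4e-05). Rps20, a small-subunit protein at the head of the subunit, had 0.788, 10.01 and 13.8 CPM in granulocytes, against 36.2, 77.5 and 208 CPM in monocytes (log2 fold change -2.69 ± 0.45, edgeR adjusted p = 4.46e-05). Rps4x, the X-linked gene of a small-subunit protein, had the largest fall of the family, with 0.263, 5.55 and 16.1 CPM in granulocytes against 45.4, 69.6 and 394 CPM in monocytes (log2 fold change -3.49 ± 0.61, edgeR adjusted p = 7.08e-05).

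Rps3 and Rpl8, with under 10% of windows found in another annotated gene, were called lower, whereas Rpl3l, with none, was called higher. Rps3 had 101.2, 126 and 316 CPM at the lowest, median and highest of the granulocyte libraries, against 312, 525 and 1223 CPM in monocytes, an overlap of 1 library on each side. Its log2 fold change was -1.12 and that of Rpl8 was -1.39. Rpl4, with 16.5% of windows shared, had a log2 fold change of -1.84 and was also called lower. Of the 5 genes with under 10% of windows shared, 4 were lower and 1, Rpl3l, was higher (median log2 fold change -1.39). Of the 27 with 10% to under 50%, 16 were lower and 0 higher (median -1.27), and of the 48 with 50% or more, 21 were lower and 2 higher (median -1.13). Of 29 genes with the pyrimidine run 15 were lower (median -1.15), and of 30 with a listed start and no run 12 were lower (median -1.08), a difference that was not tested.

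The 3 genes that rose in granulocytes were Rpl3l, Rps13 and Rps27. Rpl3l had 0 CPM at the lowest, 9.03 at the median and 19.2 at the highest of the granulocyte libraries, against 1.04, 1.67 and 4.68 CPM in monocytes (log2 fold change 2.62 ± 0.58, edgeR adjusted p = 0.000727). The library at 0 was granulocytes 1 of the small stage, one of doubtful quality, and the other 8 lay above every monocyte library. Rps13, at the interface of the subunits, had 1.05, 18.4 and 32.5 CPM in granulocytes and 3.93, 12.4 and 23.3 CPM in monocytes, a wide overlap (log2 fold change 1.34, adjusted p = 0.0243). Rps27 had 0, 13.3 and 20.6 CPM in granulocytes and 2.37, 7.22 and 14.3 CPM in monocytes (log2 fold change 1.41, adjusted p = 0.0386). The call of Rps27 held in 8 of 25 settings and that of Rps13 in 19 of 25, while Rpl3l, Rpl36al, Rpl32 and Rps20 were called in 25 of 25.

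Other gene lists also fell, both those of protein synthesis and that of the respiratory chain. Among all genes tested in this comparison, 26.9% were called lower and 23% higher. Of 7 further ribosomal protein genes that the symbol rule leaves out (Rack1, Rplp0 and Rpsa among them), 3 were lower and 0 higher in granulocytes. Of 25 other genes known for TOP messages, mostly translation factors, 14 were lower and 0 higher (median log2 fold change -1.03). Of 77 mitochondrial ribosomal protein genes, 49 were lower and 1 higher (median -1.64), of 77 respiratory chain genes 40 were lower and 1 higher (median -1.03), and of 33 genes of ribosome biogenesis 25 were lower and 0 higher (median -1.56). The medians of these lists lay on both sides of the -1.19 of the 80 genes. Granulocyte markers summed to between 12054 and 21793 CPM in granulocytes and between 543 and 1264 CPM in monocytes, and monocyte markers to between 1407 and 3044 CPM in granulocytes and between 5653 and 12899 CPM in monocytes; their part in the result was not tested. Without the 20 libraries of high share, 27 genes were lower and 1 higher (median log2 fold change -0.95), and without the doubtful libraries 46 were lower and 4 higher.

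**Figure D3:**
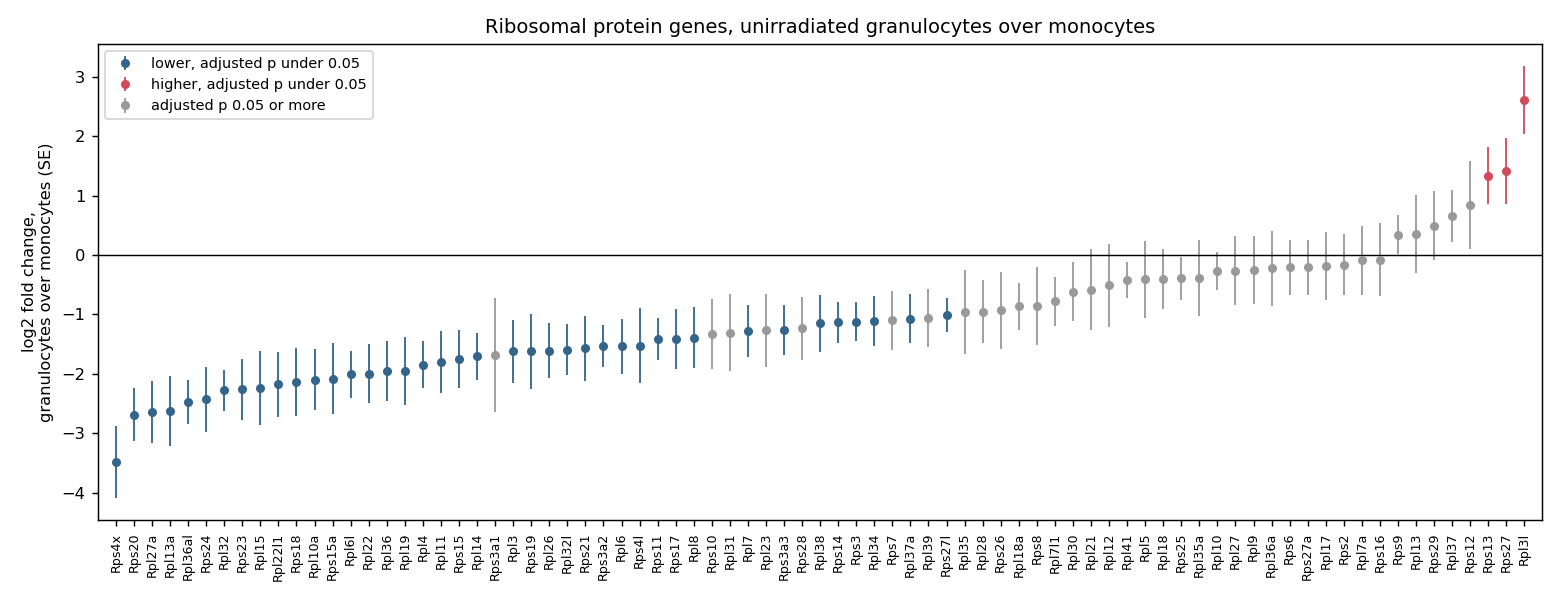
Log2 fold change of each of 79 ribosomal protein genes (1 called lower is not drawn), granulocytes over monocytes of unirradiated tumours, with bars of 1 SE and genes ordered by value along the horizontal axis; blue marks 40 genes called lower, red 3 called higher and grey the rest. The values run from -3.49 for Rps4x to 2.62 for Rpl3l.

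Between BMDM and microglia of unirradiated tumours few of these genes were called in the fit of all libraries. That count moved strongly with the libraries kept, as given below. By edgeR, 7 of the 80 genes were higher and 2 lower in BMDM, where 16.1% of all 15103 genes tested were called higher and 13.8% lower. In that fit the share of calls among the 80 genes was below the background. However, 66 of the 80 had a positive fold change, with a median log2 fold change of 0.36 against -0.04 for all genes. Microglia markers summed to between 1538 and 6627 CPM in BMDM and between 7930 and 14289 CPM in microglia, and macrophage markers to between 2731 and 10260 CPM in BMDM and between 183 and 997 CPM in microglia. Of 77 respiratory chain genes, 48 were higher and 1 lower in BMDM, and of 34 genes of ribosome biogenesis 2 were higher and 10 lower.

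Of 8 paralogue genes among the 80, 3 were higher in BMDM (Rps27l, Rpl3l and Rpl36al), 1 was lower (Rps4l) and 4 were not called, among them Rpl22l1 with a log2 fold change of 0.25 (edgeR adjusted p = 0.357). Rps27l had 96.9, 156.5 and 275 CPM at the lowest, median and highest of 10 BMDM libraries, against 38.4, 76.0 and 96.0 CPM in 10 microglia libraries. The groups did not overlap, and the log2 fold change was 1.08 ± 0.17 (edgeR adjusted p = 4.67e-05), whereas Rps27, which encodes the near-identical protein, differed by -0.18 (adjusted p = 0.682). Rpl3l had 0.227, 2.09 and 4.62 CPM in BMDM, against 0.0553, 0.0974 and 1.05 CPM in microglia. The groups overlapped little (log2 fold change 3.35 ± 0.62, edgeR adjusted p = 0.000334). The microglia values lay near the detection limit, so the size of this fold change is uncertain. Rpl36al had 117, 142 and 168 CPM in BMDM, against 46.4, 91.7 and 138 CPM in microglia, with some overlap. The log2 fold change was 0.57 ± 0.15 (edgeR adjusted p = 0.00564), while Rpl36a differed by -0.01 (adjusted p = 0.992). Over all libraries Rpl36a had a mean of 1.43 CPM, against 66.1 CPM in the rows named as its pseudogenes. Nearly all windows of Rps27 occur in other annotated genes, as given above. Whether these partner genes were themselves unchanged therefore cannot be told from their rows. Rps9, Rps14, Rpl18 and Rpl13 were also higher, by 0.40 to 0.70 on the log2 scale.

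In the other direction, Rpl10a, a large-subunit protein of the L1 stalk, had 11.1, 16.2 and 34.9 CPM in BMDM, against 18.3, 33.2 and 71.0 CPM in microglia, with overlap. The log2 fold change was -0.99 (edgeR adjusted p = 0.00958). The retrocopy Rps4l, which overlaps Tmtc1, fell by 0.77 on the log2 scale (adjusted p = 0.0271). Rps27l, Rpl3l, Rpl36al and Rpl10a were called in each of 27 settings. The count of calls was less stable. It was 24 higher and 2 lower without microglia 3 of the small stage. Leaving out microglia 2 or 4 of the large stage or 5 of the small stage gave 4 higher and 1 lower. It was 29 higher and 3 lower without the libraries of high share, and 3 higher and 1 lower without the doubtful libraries. The shares of all genes called in these settings are not given here, so these counts cannot be set against a background.

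Between BMDM and monocytes of unirradiated tumours, no ribosomal protein gene was called. EdgeR called 0 of 80 and DESeq2 called 0, 3 had an unadjusted p under 0.05, and 13.8% of all 14939 genes tested were called in either direction. The median log2 fold change was 0.16. Rps27l differed by 0.31 ± 0.14 (edgeR adjusted p = 0.177) and Rpl22l1 by 0.10 ± 0.21 (adjusted p = 0.837). Leaving out monocytes 5 of the large stage gave 2 calls and leaving out monocytes 4 of the small stage gave 1.

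The next comparison set microglia of tumour-bearing brains against microglia of tumour-free animals, the normal counterpart in the series. At the small stage 1 gene was higher and 5 were lower, where 7.55% of 19754 genes tested were called higher and 7.82% lower. At the large stage 5 genes were higher and 4 lower, where 11.7% of all genes were called higher and 20.2% lower (31.9% in either direction). The median log2 fold change of the 80 genes was 0.14 and 0.21 for the small and the large stage, against -0.03 and -0.26 for all genes. With DESeq2's scaling factors (RLE) the medians were -0.09 and -0.07, so the direction of the family as a whole depended on the scaling. These 2 comparisons share their tumour-free libraries.

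Rpl10, Rps29, Rpl11 and Rps27 were called lower at both stages. Rpl10, an X-linked large-subunit protein that joins last in maturation, had 39.4, 34.6, 56.8, 50.1 and 28.97 CPM in small-stage microglia and 32.04, 50.9, 28.9, 45.3 and 78.3 CPM in large-stage microglia, against 43.8, 149, 258 and 152 CPM in tumour-free microglia. The log2 fold change was -1.49 at the small and -1.24 at the large stage (edgeR adjusted p = 0.00547 and 0.0107). Rpl11, the Mdm2-binding protein, had 3.88, 3.90, 10.4, 6.06 and 3.82 CPM at the small stage, against 4.54, 11.7, 135.0 and 9.60 CPM in tumour-free microglia. Its highest value and that of Rps29, at 41.6 CPM, both came from tumour-free microglia 3, the library with the fewest counts of all. Among the genes that rose at the large stage were Rpl32 by 1.35, Rpl4 by 1.05 and Rps27l by 0.82 on the log2 scale (adjusted p = 0.0225, 0.0278 and 0.0154).

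Both results rest on few libraries. Without the doubtful libraries 0 genes were called at the small and 1 at the large stage, and the same counts were found when the compared groups were fitted alone. Without tumour-free microglia 3, 2 genes were called at the small stage and 4 at the large, and without tumour-free microglia 1 the large stage gave 4 higher and 7 lower. Without microglia 5 of the large stage 2 genes were higher and 4 lower. Astrocyte markers summed to between 141 and 405 CPM at the small stage and between 170 and 398 CPM at the large stage, against 1549 to 3663 CPM in tumour-free microglia, and 7 of the 8 were called lower at each stage. Of 10 proliferation genes, 7 were higher at the small and 5 at the large stage. The part of these cells or of doubtful libraries in the result was not tested.

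Tumour-free microglia with 5x2 in their titles were set against the other tumour-free microglia. For the D3 title, edgeR called 0 of 80 genes (9 at an unadjusted p under 0.05), where 0.825% of all genes were called higher and 1.09% lower (1.91% in either direction). DESeq2 called 4 of the family, all lower, and its share of all genes is not given here. For the D5 title, Rps27l was the only call, where 0.795% of all genes were called higher and 0.552% lower. Rps27l had 182, 94.1 and 115 CPM in the D5-titled libraries and 94.6, 97.8 and 106 CPM in the D3-titled ones, against 59.4, 64.5, 89.3 and 37.2 CPM in the other tumour-free microglia. Every titled library thus lay above every untitled one. The log2 fold change was 1.20 ± 0.28 for D5 (edgeR adjusted p = 0.0353) and 0.89 ± 0.28 for D3 (adjusted p = 0.0691). The D5 call held in 8 of 14 settings and was lost with RLE scaling, with a replicate block, without the libraries of high share, in the fit of these groups alone, and without D5-titled library 1 or 3. Without tumour-free microglia 1, 4 genes were called, 1 higher and 3 lower.

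Monocytes of unirradiated tumours were compared with blood monocytes of tumour-free animals. Of the 80 genes, 1 was higher and 7 were lower in tumour monocytes, where 11.6% of 23989 genes tested were called higher and 43.7% lower. The median log2 fold change was -0.46 for the 80 genes and -1.18 for all genes. Rpl7l1, a paralogue of Rpl7 that acts in making ribosomes rather than as a standard part of them, had 76.8, 94.3 and 139 CPM at the lowest, median and highest of 9 tumour libraries, against 45.4, 34.0, 67.3 and 78.0 CPM in blood. With TMM scaling its log2 fold change was 1.14 ± 0.26 (edgeR adjusted p = 0.000824). Rpl3l had 1.04, 1.67 and 4.68 CPM in tumour monocytes, against 12.3, 11.5, 22.4 and 14.2 CPM in blood monocytes, without overlap (log2 fold change -2.15 ± 0.54, adjusted p = 0.00148). Rpl11 had 2.17, 4.76 and 9.51 CPM in tumour monocytes, against 16.2 to 38.2 CPM in blood, also without overlap (log2 fold change -1.96 ± 0.50, adjusted p = 0.00167). Rpl5, the partner of Rpl11 on 5S RNA, and Rps27a, which is made as a fusion with ubiquitin, fell by 1.56 and 1.21 on the log2 scale (adjusted p = 0.0264 and 0.0449).

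Other blood cells moved with this comparison. Erythroid markers summed to between 0 and 13.6 CPM in tumour monocytes and between 1132 and 13503 CPM in blood monocytes, with 7 of 7 tested called lower. B cell markers were called lower in 7 of 8 and T or NK cell markers in 6 of 8, with 1 higher. Their part in the result was not tested. Without the doubtful libraries, which leave 1 blood library, 0 genes were called (23 at an unadjusted p under 0.05, median log2 fold change -1.24). Without blood monocytes 4, 7 genes were higher and 4 lower. Without blood monocytes 1 or monocytes 2 or 3 of the small stage 4 or 5 were called, without monocytes 4 of the small stage 14, and without monocytes 5 of the large stage 18.

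Tumour stage and irradiation gave no call by edgeR in any of the 80 genes. In the comparison of the large with the small stage, edgeR called 0 in microglia, BMDM, monocytes and granulocytes, with 0, 0, 0 and 6 genes at an unadjusted p under 0.05. The share of all genes called was 0 in the first 3 populations and 0.0141% lower in granulocytes. DESeq2 called 15 genes lower in large-stage granulocytes, RLE scaling in edgeR gave 13, and leaving out granulocytes 2, 3 or 4 of the small stage gave 2 each, so that result depended on the scaling. The shares of all genes called in these settings are not given here, so the counts cannot be read as particular to the family.

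In the 16 comparisons of irradiated with unirradiated libraries, edgeR also called 0 of the 80 genes (79 in granulocytes). The background was low too. In microglia 0.0607% of all genes were called after 5x2 Gy at day 3, 0.0354% at day 5, 0.00506% at day 10 and 0.101% after 1x10 Gy, each higher, and in BMDM 0.0063% after 1x10 Gy, while in the other 11 comparisons the share was 0. Genes of the family at an unadjusted p under 0.05 numbered between 0 and 9 per comparison. DESeq2 called 1 gene lower in BMDM (Rpl22l1) and 1 lower in granulocytes, both after 1x10 Gy, and 0 in the other 14. Its shares of all genes called are not given here.

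The medians of the family leaned down in the 2 latest or single-dose settings. At 5x2 Gy day 10 the median log2 fold change was -0.34 in microglia, -0.64 in BMDM, -0.44 in monocytes and -0.39 in granulocytes, and at 1x10 Gy it was -0.61, -0.45, -0.61 and -0.62 in the same order. At days 3 and 5 of 5x2 Gy it lay between -0.20 and 0.18. Within a population the comparisons share the unirradiated libraries, and none of the groups of 5x2 Gy day 10 holds a library of high share. Without those libraries the day 10 medians were 0.09 in microglia, -0.32 in BMDM, -0.03 in monocytes and -0.27 in granulocytes, and the 1x10 Gy medians were -0.15, -0.51, -0.13 and -0.52. In group means, the family's share was 0.381 ± 0.049% in microglia of day 10 (SD, n = 3), against 0.428 ± 0.244% at the small (n = 5) and 0.451 ± 0.218% at the large unirradiated stage (n = 5), a difference within the spread.

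**Figure D4:**
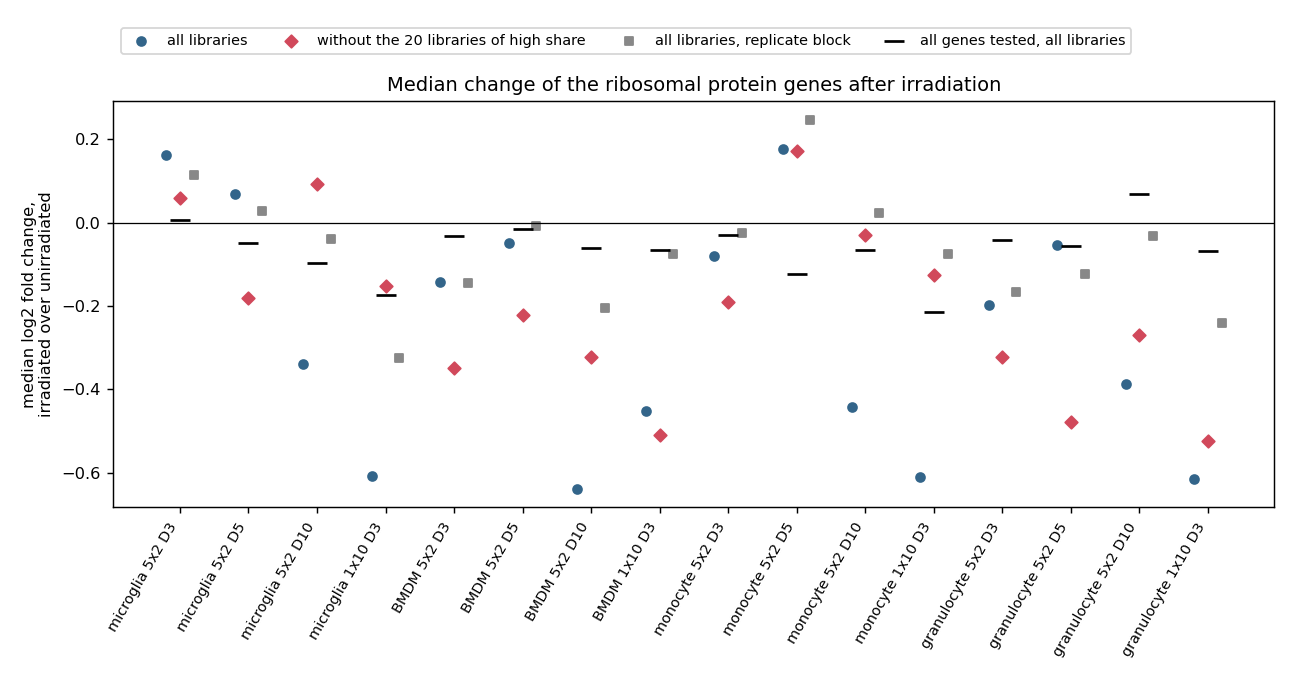
Median log2 fold change over the ribosomal protein genes tested, irradiated over unirradiated libraries, for each of 16 comparisons on the horizontal axis: blue circles use all libraries, red diamonds leave out the libraries of high share, grey squares add the replicate number as a block, and black dashes give all genes tested. The blue values lie between -0.64 and 0.18, and the red and grey values of microglia and monocytes at day 10 lie within 0.10 of 0.

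Rps27l, a p53 target and paralogue of Rps27, was followed through all groups. In irradiated microglia it had 89.7, 107, 118 and 133 CPM at 5x2 Gy day 3, 66.1, 82.2, 95.8 and 155 CPM at day 5, 121, 109.8 and 94.4 CPM at day 10, and 120, 107 and 92.1 CPM after 1x10 Gy. In unirradiated microglia the lowest, median and highest of 10 libraries were 38.4, 76.0 and 96.0 CPM, so irradiated libraries tended to be higher and the groups overlapped. The log2 fold change was 0.62 ± 0.21 at day 3 of 5x2 Gy (edgeR quasi-likelihood test, adjusted p = 1), 0.45 at day 5, 0.54 at day 10 and 0.59 after 1x10 Gy, and none of these passed the adjustment over all genes. In BMDM, monocytes and granulocytes the 12 values after irradiation lay between -0.42 and 0.22. The difference between populations was not tested. In large- against small-stage granulocytes Rps27l was not called in the main fit. In 15 alternatives its log2 fold change lay between -1.90 and -0.149, and 2 of them called it.

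Across populations, Rps27l stood lowest in granulocytes, with 19.5, 33.7 and 46.5 CPM at the lowest, median and highest unirradiated library, against 97.4, 115 and 138 CPM in monocytes, without overlap. The log2 fold change was -1.01 ± 0.29 (edgeR adjusted p = 0.00645). With RLE scaling it was -0.16 (adjusted p = 0.789) and with DESeq2 -0.17, and without the libraries of high share -0.88 (adjusted p = 0.0699), while without granulocytes 1 of the small stage it was -1.22 (adjusted p = 3.56e-06). In order of median level, granulocytes were followed by microglia, monocytes and BMDM, where the step from monocytes to BMDM was not called.

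Rpl22l1, the paralogue of Rpl22 that can replace it in the ribosome, was lower in granulocytes than in monocytes, at 0.180, 1.75 and 5.09 CPM against 6.57, 17.9 and 24.4 CPM, without overlap (log2 fold change -2.18 ± 0.55, edgeR adjusted p = 0.00229). Rpl22 fell by 2.0 on the log2 scale in the same comparison (adjusted p = 0.00219). In BMDM, Rpl22l1 had 7.99, 9.92 and 8.29 CPM at 5x2 Gy day 10 and 6.36, 11.2 and 9.26 CPM after 1x10 Gy, against 10.1, 21.7 and 24.1 CPM at the lowest, median and highest unirradiated library. The log2 fold changes were -1.15 (edgeR adjusted p = 0.644) and -1.13 (adjusted p = 0.458). DESeq2 called the fall after 1x10 Gy (adjusted p = 0.0334), the only 1 of 19 alternatives to do so. In monocytes it had 6.38, 7.85 and 5.98 CPM at day 10 and 8.01, 6.14 and 7.42 CPM after 1x10 Gy, against 6.57, 17.9 and 24.4 CPM, with log2 fold changes of -1.33 and -1.22 that did not pass adjustment.

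**Figure D5:**
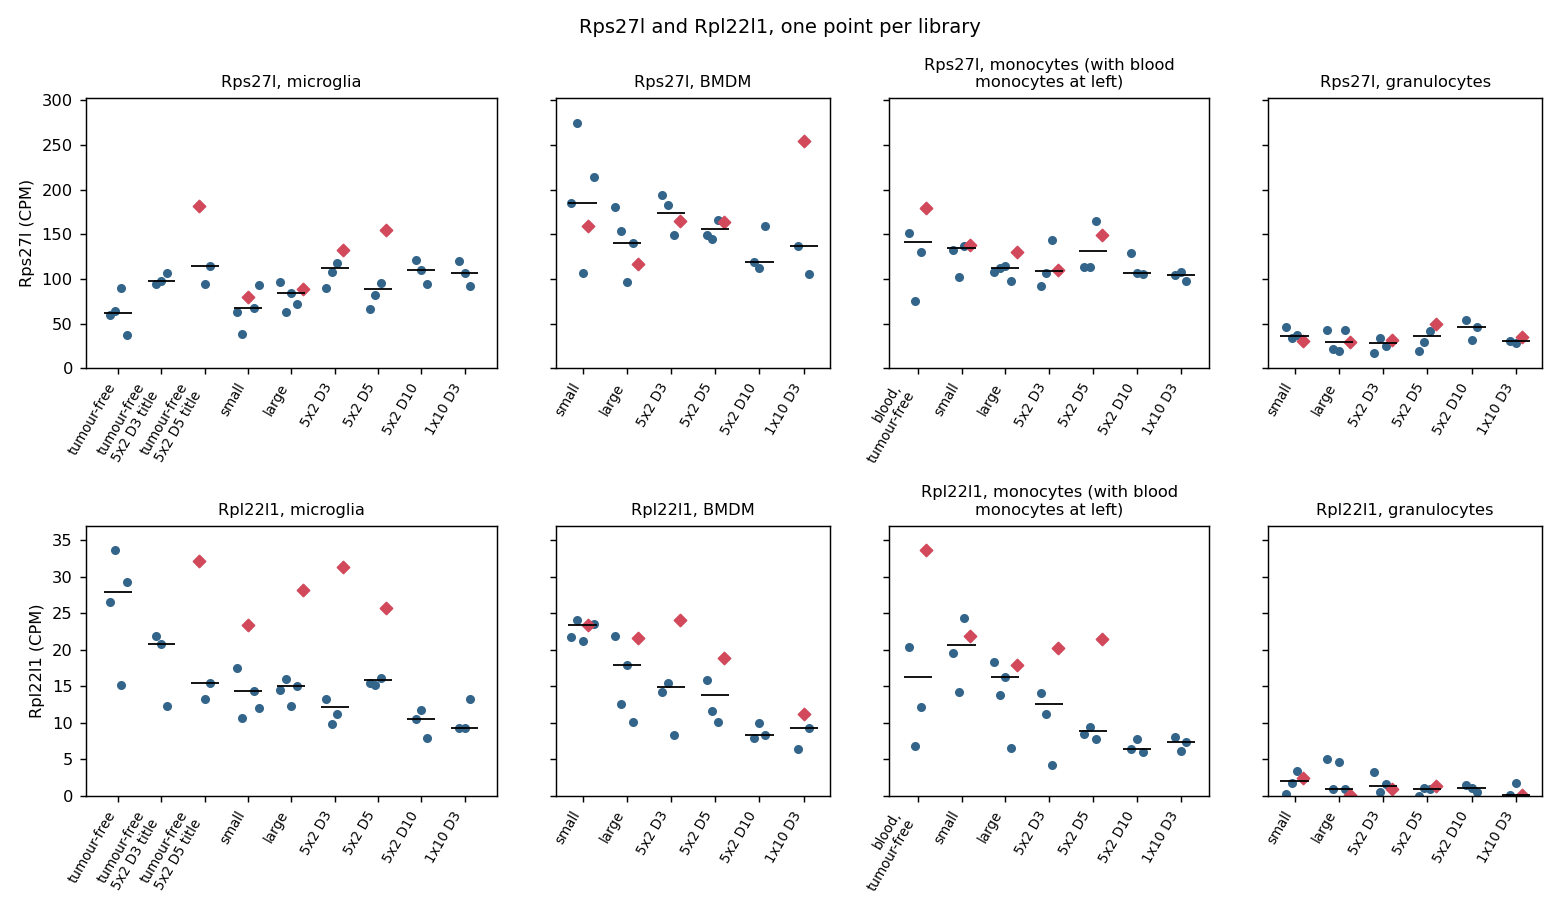
Levels of Rps27l (upper row) and Rpl22l1 (lower row) in CPM on linear axes from 0, 1 point per library by group, with bars at group medians and red diamonds for the 20 libraries in which the family's share of counts was high. Rps27l in unirradiated BMDM lies between 96.9 and 275 CPM, above unirradiated microglia, and granulocyte medians are the lowest of the tumour populations for both genes.

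Among the genes linked to p53 through Mdm2 or its targets (Rpl5, Rpl11, Rpl23, Rpl26, Rps7, Rps27a and Rps3), 3 of 7 were called lower and 0 higher in granulocytes against monocytes, where 26.9% of all genes were called lower. In the whole family 18 of 34 small-subunit and 23 of 46 large-subunit genes were lower there. The 7 genes thus did not stand out from the family in that comparison. In tumour against blood monocytes 3 of the 7 were called lower, where 43.7% of all genes were, a share near that background. Rpl26, which also binds the p53 message, fell by 1.61 on the log2 scale in granulocytes (edgeR adjusted p = 0.00576), Rpl11 by 1.80 (adjusted p = 0.00648) and Rps3 by 1.12 (adjusted p = 0.00661). Rpl5 differed by -0.41 ± 0.65 (adjusted p = 0.615). Rps19, a small-subunit protein needed for maturation of its ribosomal RNA, fell by 1.62 (adjusted p = 0.0351). Rps6 differed by -0.21 (adjusted p = 0.726) and Rpl38, known from patterning of the mouse skeleton, fell by 1.15 (adjusted p = 0.0493).

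Rpl3l had its highest levels in granulocytes and in blood monocytes. In irradiated granulocytes it had 10.5, 11.3, 13.5 and 13.7 CPM at 5x2 Gy day 3, 5.15, 9.84, 10.2 and 14.7 CPM at day 5, 14.4, 10.5 and 17.2 CPM at day 10, and 14.7, 9.07 and 29.4 CPM after 1x10 Gy. In the 9 unirradiated granulocyte libraries of both stages the lowest, median and highest were 0, 9.03 and 19.2 CPM. The groups overlapped, and no setting called a change with irradiation. In microglia of tumours the highest unirradiated value was 1.05 CPM, and 2 of 3 libraries after 1x10 Gy had no count. Tumour monocytes lay between with medians near 1.67 CPM. In striated muscle this protein replaces Rpl3, which fell by 1.62 on the log2 scale in granulocytes against monocytes (edgeR adjusted p = 0.0149).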

How the data were processed

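The deposited values are raw counts per gene; per the submitters' processing notes, the authors used FastQC, TopHat2 2.0.14, HTSeq, DESeq2 1.18.1 and build GRCm38. The sources used here do not state the strand setting, the annotation release or how reads with several matches were handled. Total counts per library lay between 985423 and 18642700, which limits the precision of weakly expressed genes. Levels are CPM of the total count. Fold changes came from edgeR 4.0.16 (R 4.3.3, limma 3.58.1) with filterByExpr, TMM scaling and the quasi-likelihood test on 7 fits: microglia, BMDM, monocytes with blood monocytes, and granulocytes, each with all their groups, and 3 fits across populations of unirradiated libraries. Irradiated groups were set against the mean of both unirradiated stages. P-values were adjusted over all genes of a fit by the Benjamini-Hochberg method at 0.05, and the SE is the fold change divided by the square root of F. Simulated counts were fitted only for granulocytes against monocytes and for small-stage against tumour-free microglia. Their outcome is not given here, and no result rests on it. Alternatives were DESeq2 1.42.0, RLE scaling, no low-count filter, a replicate block, fits of the compared groups alone, and leaving out each library. Leaving out the 12 doubtful libraries was also planned, whereas leaving out the 20 of high share, the processed pseudogenes, and blocking within stage were chosen after seeing the data. Named were the called genes with the smallest adjusted p in each direction, the paralogues with their partners, genes with known roles outside the ribosome, and the extremes of level and composition; further genes with nearly unique sequence were chosen after their values were seen. The genes and all lists were chosen with earlier results of these data known. Single values of some ribosomal protein genes are not reported here, although the counts and medians include them.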

Additional observations from a re-analysis of the deposited data

Results flagged for a closer look

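Libraries are listed where the gap to the next one, over the range of the group, passed Dixon's 95% limit, which chance alone passes in about 1 in 20 groups. The family's share of counts is the measure the genes were grouped by, so its values are a description, and no number of them is set against chance. The highest library of its group stood apart in this share in BMDM of 5x2 Gy day 3 (0.967%), BMDM of 5x2 Gy day 5 (1.06%), large-stage BMDM (0.937%), microglia of 5x2 Gy day 5 (1.04%), large-stage microglia (0.836%), small-stage microglia (0.852%), granulocytes of 5x2 Gy day 3 (0.204%) and large-stage monocytes (1.07%). In tumour-free microglia the lowest library stood apart, at 0.251%. Each of the high ones is number 4 or 5 of its group, except number 3 in small-stage microglia.

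For the paralogues, Rps27l stood apart at the low end in small-stage monocytes 2, with 102 CPM. Rpl22l1 stood apart at the high end in microglia of 5x2 Gy day 3 (31.3 CPM), microglia of 5x2 Gy day 5 (25.7 CPM), large-stage microglia (28.2 CPM) and monocytes of 5x2 Gy day 5 (21.5 CPM), all of them libraries in which the family's share was also high. Rpl3l stood apart in large-stage microglia 1 (0.272 CPM) and small-stage microglia 4 (1.05 CPM), both levels near the detection limit.

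Rows named as pseudogenes of ribosomal protein genes lie outside the 80 genes and held a median of 0.274% of all counts over all libraries.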

How the results depend on the processing

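Followed through the alternatives were the called genes with the smallest adjusted p in each direction of a comparison. Rps27l, Rpl22l1, Rpl3l, Rpl36al and Rps4x were followed in every comparison. None of these that was called changed direction, and the other named genes were not followed. The shares of all genes called under the alternatives are not given here. The number of ribosomal protein genes called did change. With RLE scaling it was 8 for large-stage against tumour-free microglia, now mostly lower, 1 and 0 for the D3- and D5-titled microglia, 24 for monocytes against blood and 13 for large- against small-stage granulocytes. DESeq2 gave 11 and, for the same further comparisons, 4, 5, 22 and 15, with most of the first and of the 5 lower, and 1 each in BMDM and granulocytes after 1x10 Gy. Without a low-count filter it was 3 for small-stage microglia and 2 for granulocyte stages. Without doubtful libraries it was 0 and 1 for small- and large-stage microglia, 0 for monocytes against blood and 4 for BMDM against microglia, and in fits of the compared groups alone 0, 1 and, for the D5 title, 0. Without the libraries of high share it was 14 for large-stage microglia, mostly lower, 1 and 0 for the D3 and D5 titles, 15 for monocytes against blood, 32 for BMDM against microglia, 1 for BMDM against monocytes and 28 for granulocytes against monocytes. Without the processed pseudogenes 7 remained for large-stage microglia, 4 of them lower. Adding named pseudogene rows moved the median share to 0.646%. The cause was not tested.

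In no comparison did every pair of same-numbered libraries correlate above 0.1, so the numbers were not taken as pairs. Some pairs did correlate: the range was -0.22 to 0.48 for BMDM against microglia, -0.022 to 0.445 for BMDM against monocytes, where 7 of 9 pairs matched best by number, and -0.035 to 0.308 for granulocytes against monocytes, with 5 of 9. A replicate block gave 0 calls for the D5 title and 22 for monocytes against blood, and within stage 1 for BMDM against monocytes.

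Leaving out 1 library gave 34 to 50 calls for granulocytes against monocytes, 5 to 26 for BMDM against microglia, 0 to 2 for BMDM against monocytes, 2 to 9 and 4 to 12 for small- and large-stage microglia, 0 to 2 and 0 to 4 for the D3 and D5 titles, 4 to 18 for monocytes against blood, 0 to 2 for granulocyte stages, and 0 for the other comparisons. The median share then lay between 0.370% and 0.375%, and the unirradiated ratio of granulocytes to monocytes, 0.262 in all, between 0.239 and 0.299.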
